A study of Tetranychus urticae with 8 samples.

Results

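Two-spotted spider mites (Tetranychus urticae) feed on a wide range of plants, some of which release cyanide when their leaves are damaged. The genes described here are 2 of the 17654 gene IDs in the deposited count table, tetur10g01570 and tetur28g02430. They were chosen by identity, as the genes of beta-cyanoalanine synthase and cyanase, both considered to have come from bacteria, and no count enters the rule, although results of these data were known when the pair was proposed. The table holds IDs without names, and a RefSeq gene table of this species matched 0 of its IDs, so the enzyme names are those under which the IDs were chosen. No coordinates or sequences are given for the same reason. Both genes passed the filter on low counts, which 12885 genes passed in all.

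Beta-cyanoalanine synthase joins cyanide to the amino acid cysteine, giving beta-cyanoalanine and hydrogen sulfide, and is a route by which plants, bacteria and some arthropods remove cyanide. Cyanase splits cyanate, a related toxic ion, with bicarbonate into ammonia and carbon dioxide. Enzymes of both kinds are common in bacteria and plants and uncommon in animals, and those of plant-feeding mites are known as examples of lateral gene transfer.

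The study asked which genes differ in expression between adult females and adult males. All mites were of the strain London and were kept on detached leaves of common bean. RNA came from whole bodies, from about 200 females aged 3 days or about 800 males aged 1 to 2 days per library, with 4 libraries of each sex. Males were pooled in larger numbers because they are smaller, so values are shares of the RNA of a pool and not amounts per mite. Sex, age and pool size changed together and cannot be told apart in any comparison. In whole-body RNA, a smaller share of expressing cells and less transcript per cell cannot be told apart either. The labels call the libraries biological replicates without saying whether cultures were separate, and p-values here refer to the spread over these pools of mites.

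Library totals were 12912850 to 17443223 reads on genes in females and 12082575 to 21414612 in males. Across the tested genes, log2 levels correlated at 0.992 to 0.994 between female libraries, at 0.648 to 0.665 between libraries of unlike sex, and at 0.989 to 0.993 between male libraries. These are correlations across genes, which are not independent replicates. No ID could be tied to a marker gene of either sex, so the sex labels were not checked against markers. Most of the transcriptome differed, and this is the background for both genes. Of the 12885 tested genes, 26.9% were higher in females and 30.5% higher in males at an adjusted p below 0.05 and a fold of at least 2, while 89.9% passed the test with a fold of any size and the other 10.1% missed its threshold.

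The beta-cyanoalanine synthase gene was lower in females than in males, at 0.319 of the male level. It had 870, 670, 638 and 735 reads in female replicates 1 to 4, against 2365, 3115, 2138 and 2136 reads in male replicates 1 to 4. With libraries scaled by TMM (trimmed mean of M values) and levels given as CPM, the counts per 1000000 scaled reads, its level was 49.4, 51.6, 48.7 and 52.5 CPM in the female libraries, against 173, 147, 177 and 138 CPM in the male libraries. Every female library lay below every male library, and the lowest male value was 2.62 times the highest female value. The means were 50.5 ± 1.8 CPM in females and 159 ± 19 CPM in males (SD, n = 4 each).

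The log2 fold change of the beta-cyanoalanine synthase gene, female minus male, was -1.65 ± 0.08 (SE; edgeR quasi-likelihood test, adjusted p = 1.53e-11 over all tested genes). The 95% interval of the level in females relative to males ran from 0.285 to 0.357. An exact permutation test of the CPM values gave p = 0.0286 (two-sided), the smallest that the 70 assignments of 4 and 4 libraries allow. The gene was thus among the 30.5% of tested genes called higher in males. It was also among the 86.2% whose female and male libraries did not overlap. Of all tested genes, 21.4% had a lower log2 fold change, and 61.3% had one of smaller size in either direction. Over all tested genes the log2 fold change had a median of -0.05 and quartiles of -1.36 and 1.11.

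**Figure D1:**
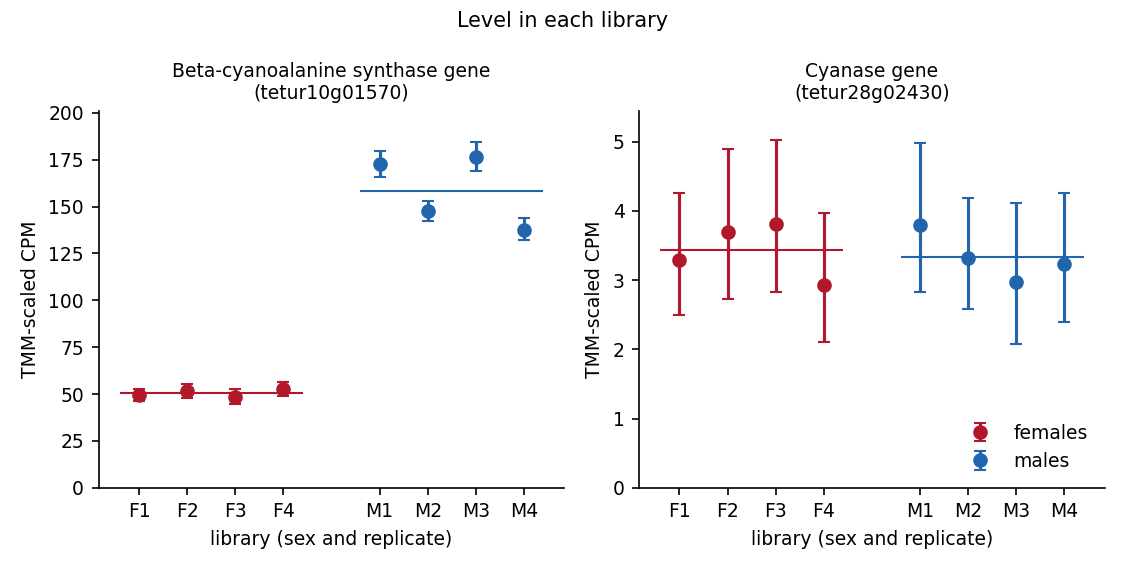
Level of the beta-cyanoalanine synthase gene (left) and the cyanase gene (right) in each library, in TMM-scaled CPM on axes that start at 0; F1 to F4 are female and M1 to M4 male replicates, bars are 95% exact Poisson intervals for counting error and lines are group means. The synthase gene had 48.7 to 52.5 CPM in females against 138 to 177 CPM in males, while the cyanase values of the sexes overlapped.

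The cyanase gene had a low level, which differed little between the sexes. It had 58, 48, 50 and 41 reads in female replicates 1 to 4, against 52, 70, 36 and 50 reads in male replicates 1 to 4. Its level was 3.29, 3.70, 3.81 and 2.93 CPM in the female libraries, against 3.79, 3.31, 2.97 and 3.23 CPM in the male libraries. The ranges of the sexes overlapped almost entirely, and the lowest and the highest of the 8 values were both from female libraries. The means were 3.43 ± 0.40 CPM in females and 3.33 ± 0.34 CPM in males (SD, n = 4 each).

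The log2 fold change of the cyanase gene, female minus male, was 0.04 ± 0.15 (SE; edgeR quasi-likelihood test, adjusted p = 0.814). The 95% interval of the level in females relative to males ran from 0.818 to 1.29, which leaves out a 2-fold difference in either direction but not smaller ones. The exact permutation test gave p = 0.771 (two-sided). The gene was thus among the 10.1% of tested genes that missed the threshold. With TMM scaling, 239 of the 12885 tested genes had a fitted log2 fold change closer to 0. With upper quartile scaling the log2 fold change was -0.17, so the data give no direction for this gene. With 197 reads in all female libraries and 208 in all male libraries, counting error alone spans a female to male ratio of 0.839 to 1.25 (95% exact binomial interval).

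**Figure D2:**
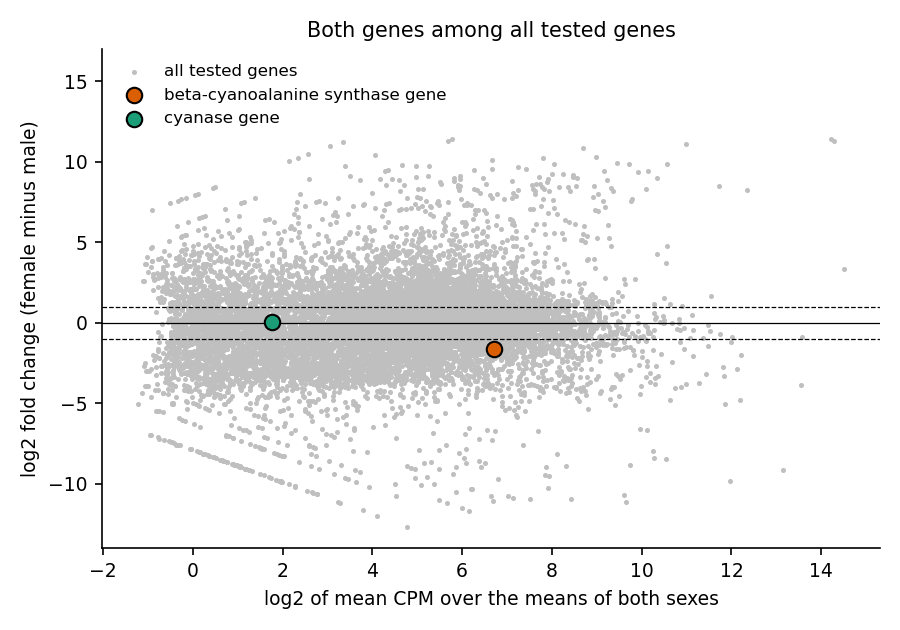
Log2 fold change (female minus male) against the log2 of the mean CPM of both sexes for the 12885 tested genes (grey), with both enzyme genes marked; dashed lines stand at 2-fold. The synthase gene lies at -1.65 and the cyanase gene at 0.04, both well inside the cloud of all genes.

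By mean CPM, the beta-cyanoalanine synthase gene stood at rank 4177 of the tested genes in females and at rank 1161 in males. It had a higher mean level than 67.6% of tested genes in females and than 91.0% in males. The cyanase gene stood at rank 9620 in females and at rank 10182 in males, with a mean level above that of 25.3% of tested genes in females and 21.0% in males. The median tested gene had 22.0 CPM in females and 19.2 CPM in males. Such ranks are not corrected for gene length, which is not given in the sources used here, so the levels of the 2 enzymes are not compared with each other.

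The sex difference of the 2 genes can be compared within libraries, where depth and scaling cancel and gene length does not enter the contrast. There were 15.0, 14.0, 12.8 and 17.9 synthase reads per cyanase read in female replicates 1 to 4, against 45.5, 44.5, 59.4 and 42.7 in male replicates 1 to 4. The highest female ratio was below the lowest male ratio. By CPM, 86.2% of single tested genes had female and male libraries that did not overlap, and ratios of other pairs of genes were not examined. The ratio mostly restates the change of the synthase gene, as the log2 fold changes were -1.65 for that gene and 0.04 for the cyanase gene. The mean log2 ratio was 3.87 ± 0.21 in the female libraries and 5.56 ± 0.21 in the male libraries (SD, n = 4 each). The difference, female minus male, was -1.69 ± 0.15 (SE), with an exact permutation p of 0.0286 (two-sided), the smallest possible. The sex difference of the synthase gene was therefore larger than that of the cyanase gene by more than the spread between libraries.

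**Figure D3:**
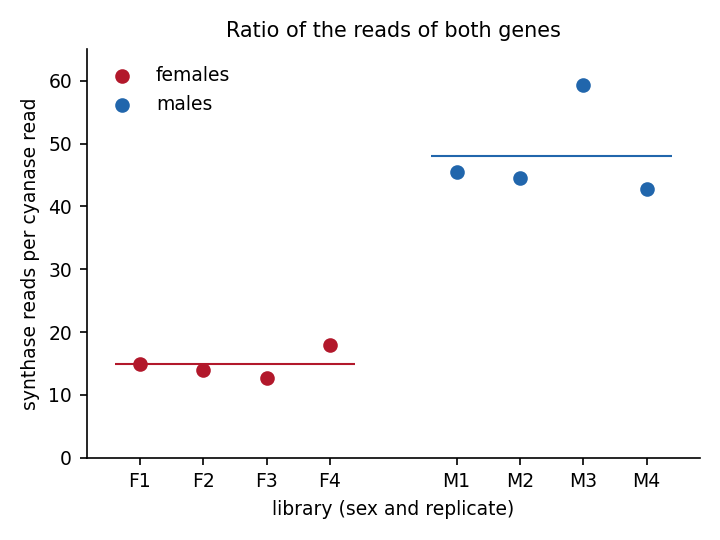
Reads of the beta-cyanoalanine synthase gene per read of the cyanase gene in each library, on an axis that starts at 0; lines are group means. The female libraries lie between 12.8 and 17.9 and the male libraries between 42.7 and 59.4.

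The spread of the beta-cyanoalanine synthase gene between libraries was at the level of counting error in females and above it in males. Its coefficient of variation was 3.59% in females, where counting error alone gives 3.71%, and 11.9% in males, where counting error gives 2.03%. The chi-square value per degree of freedom, which is near 1 when counting error accounts for the spread, was 0.919 in females and 33.2 in males. The coefficient of variation in females was larger than that of 14.0% of tested genes, and in males larger than that of 66.8%. Its medians over all tested genes were 7.97% in females and 8.23% in males. These shares and medians are not matched for level, and genes with fewer reads have a larger counting error. Whether the spread itself differs between the sexes was not tested.

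Among males the synthase gene was highest in replicate 3 and lowest in replicate 4, at 1.11 and 0.869 of the male mean. Replicates 1 and 2 stood at 1.09 and 0.930. The order of the male libraries was shared by 643 tested genes (4.99%), against a median of 520 genes for the 24 possible orders. This count was added after the values had been seen. The highest male library was 1.28 times the lowest, a span far smaller than the difference between the sexes.

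The cyanase gene showed no spread beyond counting error in either sex. Its coefficient of variation was 11.8% in females and 10.3% in males, and counting error gives 14.2% in females and 13.9% in males. The chi-square value per degree of freedom was 0.653 in females and 0.468 in males. At this depth, differences between pools of one sex smaller than about the counting error were not detectable for this gene.

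**Figure D4:**
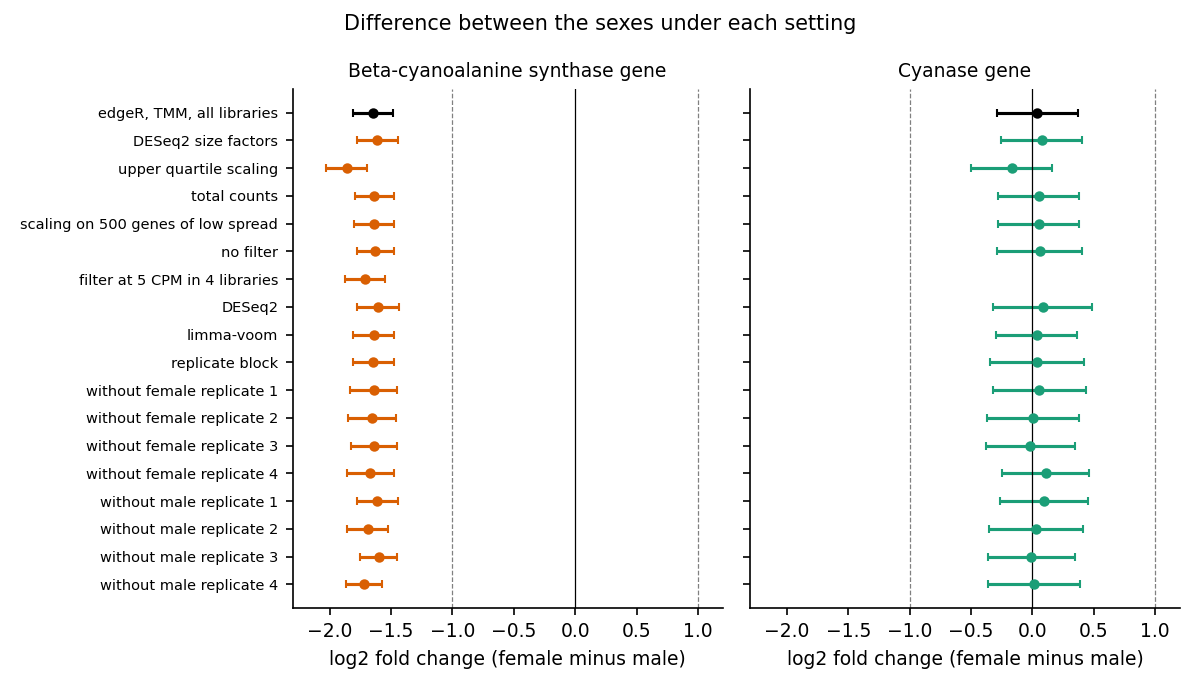
Log2 fold change (female minus male) of both genes with the 95% interval, for the reported fit (black) and each other scaling, filter, test and left-out library; dashed lines stand at 2-fold. The synthase gene keeps between -1.86 and -1.60, and the cyanase gene lies between -0.17 and 0.11, with no value at the filter of 5 CPM.

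The direction and the call of the synthase gene were the same in each of the 17 other settings run, with log2 fold changes between -1.86 with upper quartile scaling and -1.60 without male replicate 3. Leaving out single libraries gave -1.72 to -1.60. The cyanase gene passed the test in none of the 16 other settings in which it was tested, and its adjusted p ranged from 0.302 to 0.978. The widest limits of its interval over those settings were 0.707 and 1.40, as the level in females relative to males.

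The tested gene with the pattern most like that of the synthase gene was tetur09g04800. The measure was the root mean square difference of log2 CPM over the 8 libraries, each gene centred on the mean of its sex means, and it was 0.0507 for this pair. The gene tetur09g04800 had 419 ± 6 CPM in females and 1373 ± 152 CPM in males (SD, n = 4 each). Its male libraries had the same order, which the choice by likeness over these same libraries favours, with 1536 CPM in replicate 3 and 1188 CPM in replicate 4. Within 0.25 of the synthase gene on the same measure lay 812 genes (6.30% of the other tested genes), so the pattern is a common one. For the cyanase gene the most similar was tetur02g12970, at 0.0759, with 48.7 ± 5.6 CPM in females and 44.2 ± 3.6 CPM in males. Within each sex the cyanase gene showed no spread beyond counting error. A shared pattern therefore cannot be told apart here from a match to counting error, picked from all other tested genes. Within 0.25 of the cyanase gene lay 1886 genes (14.6%). The likeness of 2 patterns over 8 libraries says nothing of function, and the files do not name these IDs.

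The calls among the IDs next to each gene in numbering are to be read against the 26.9% of all tested genes higher in females and the 30.5% higher in males, and with so few IDs they show nothing particular to either stretch. Of the 20 IDs nearest to the synthase gene in number, 10 on each side, 18 were tested, and 5 were higher in females and 5 higher in males. Their median log2 fold change was 0.15, and the range was -3.34 to 3.64. Of the 20 nearest to the cyanase gene, 15 were tested, and 6 were higher in females and 5 higher in males. Their median log2 fold change was 0.76, and the range was -6.21 to 7.72. Whether the numbering follows position in the genome is not given in the sources used here.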

How the data were processed

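The deposited table gives raw read counts for each gene ID in 8 libraries, per the file headers, and its values are whole numbers without normalization. The submitters' processing notes name the aligner STAR (version 2.4.1d) and the counter HTSeq (version 0.6.1). Libraries were strand-specific and selected with oligo dT, per the labels' protocols. The build, annotation, strand setting and handling of multiply mapped reads were not given in the sources used here, so reads shared with a near copy of either gene could have been lost or misplaced. There were 0 rows without a gene and 0 unused columns.

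The comparison of females with males used edgeR's quasi-likelihood test (edgeR version 4.0.16, R version 4.3.3). Sex was the sole term, with TMM scaling and filterByExpr, which left 12885 genes. These held at least 99.9% of the reads of each library. Benjamini-Hochberg adjustment covered all of them, and calls needed an adjusted p below 0.05 and at least a 2-fold difference. Standard errors were derived from the log2 fold change and its F value. The log2 ratio of the genes had 0.5 read added to both. Exact permutation tests used SciPy version 1.17.1. The fit was tested on simulated counts with known changes. Alternatives were 4 scalings, 2 filters, DESeq2 version 1.42.0, limma-voom (limma version 3.58.1), a replicate block and each library left out.

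The members and lists were chosen with earlier results of these data known. Named genes were the members and, for each, the tested gene of most similar pattern. Other genes of cyanide and cyanate metabolism, and vitellogenin as a female marker, were to be found by description, but no ID could be given one, so they were not analysed here. Intervals from reads cover counting error only.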

Additional observations from a re-analysis of the deposited data

Results flagged for a closer look

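The CPM of both genes, the ratio of their reads and its log2 were examined in each sex for a library far from the others, and 1 value was singled out. Chance singles out about 1 in 20 independent sets, and these quantities share their counts. Male replicate 3 had 59.4 synthase reads per cyanase read, and its gap to the next male library was 0.834 of the whole male range, just over Dixon's critical value for 4 samples. On the log2 scale, on which the ratio was tested, the gap was 0.807 of the range and under that value. That library had the fewest cyanase reads of all, 36, and also the lowest total of all, 12082575 reads. Its cyanase level, 2.97 CPM, was the lowest among males but above the 2.93 CPM of female replicate 4. Its synthase level was the highest among males. Without male replicate 3, the difference of the log2 ratio, female minus male, was -1.58.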

How the results depend on the processing

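The synthase gene kept its direction and call in all 17 alternatives, with adjusted p-values of at most 6.83e-10 (by edgeR, DESeq2 or limma). The fitted cyanase value changed sign to -0.17 with upper quartile scaling, and over the libraries left out in turn it ranged from -0.017 to 0.11, with -0.017 without female replicate 3 and -0.010 without male replicate 3. None of these passed the test. Upper quartile scaling also moved the median over all tested genes to -0.27 on the log2 scale, against -0.05 with TMM scaling. The filter at 5 CPM in 4 libraries removed the cyanase gene, so it gave no value there.

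The difference of the log2 fold changes was -1.69 with 1 read added in place of 0.5 (exact p = 0.0286). With libraries left out in turn it ranged from -1.78 to -1.58, each at an exact p of 0.0571, the smallest that 3 against 4 libraries allow. As differences within same-numbered libraries (replicate block) it was again -1.69, at an exact p of 0.125, the smallest that 4 pairs allow. These therefore could not pass by construction. Same-numbered libraries did not deviate together across genes, with correlations of -0.093, 0.0017, 0.019 and 0.035. Libraries of unlike number were not compared, so these values cannot decide whether same-numbered libraries were handled as pairs. With the block the fit gave log2 fold changes of -1.64 for the synthase gene and 0.04 for the cyanase gene, and 3472 genes higher in females and 3932 in males.

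Over all genes, 3467 were called higher in females and 3935 in males. The 17 alternatives gave 2716 to 3886 in females and 2966 to 4573 in males, all within 1.5 times those numbers. The lowest numbers came from the filter at 5 CPM, with 10235 genes tested. The highest came from no filter, with 16141 genes tested, against 12885 in the reported fit, so these numbers do not share a total. Upper quartile scaling gave 3011 in females and 4456 in males. Depth limits the cyanase gene, which had 36 to 70 reads per library.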
